A study of Homo sapiens with 12 samples.

Results

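Genes whose products carry a cell from late G2 through mitosis were followed in 2 human pancreatic cancer lines without and with induction of a hairpin against GOT1, the cytosolic aspartate aminotransferase. The set holds 45 genes, picked by symbol, among 58721 genes in the deposited tables. The lines were Pa-Tu-8902 (labelled Tu8902) and MIA PaCa-2 (labelled MiaPaCa2). All cells, untreated ones included, carried a stably integrated lentiviral construct (iDox-shGOT1) from which doxycycline (dox) switches on the hairpin. Each line had 3 untreated libraries (mnsdox) and 3 libraries from cells grown with dox for 5 days (plsdox). The hairpin was present in all 12 libraries analysed here, and an effect of dox cannot be told apart from an effect of GOT1 loss. Which of the study's hairpins the cells carried is not given in the sources used here. The study's figure legends give biological replicates for many of its other assays. A reporting form attached to it, which names a cell line not used here, describes technical replicates on separate occasions. Which kind these libraries are is not stated. The p-values measure only the spread between these libraries, which may be technical. RNA was measured by strand-specific poly(A) RNA-seq, from RNA with an integrity number of at least 7.

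Entry into mitosis is driven by the kinase CDK1 bound to cyclin B, and the phosphatases CDC25B and CDC25C remove the inhibitory phosphates that WEE1 and PKMYT1 place on CDK1. Chromosomes are then attached to spindle microtubules through the kinetochore, where the NDC80 complex (NDC80, NUF2, SPC24 and SPC25) grips the microtubule. Until every chromosome is attached, the spindle assembly checkpoint keeps the protein MAD2, the product of MAD2L1, bound to CDC20, which blocks the anaphase-promoting complex (APC/C). Transcripts of most of these genes peak in G2 and mitosis, and their promoters are known for a pair of elements, the cell cycle genes homology region (CHR, TTTGAA or TTTAAA) and the CCAAT box. In RNA from a whole culture, fewer cells in G2 or mitosis and less of a transcript in each such cell cannot be told apart.

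The promoters of 8 of the members on which the results turn are shown first, since they display how the elements are laid out. MAD2L1 and NUF2 fell by at least 1.5-fold in both lines. CDC20, ANLN and NEK2 were among 6 members that differed between the lines. CCNB1, lower in Pa-Tu-8902, and HMMR and KIF23, higher in MIA PaCa-2, passed the test in 1 line. Each run is the 110 bases before the RefSeq start, 5′ to 3′ in the direction of the gene, on GRCh38.p14, with the CHR and CCAAT letters of either strand in capitals.
MAD2L1, chr4:120066849-120066958, minus strand: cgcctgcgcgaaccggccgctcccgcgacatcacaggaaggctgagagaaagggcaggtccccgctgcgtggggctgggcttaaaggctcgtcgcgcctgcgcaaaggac
NUF2, chr1:163321844-163321953, plus strand: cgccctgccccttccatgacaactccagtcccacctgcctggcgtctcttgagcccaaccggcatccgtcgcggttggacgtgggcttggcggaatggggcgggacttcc
CCNB1, chr5:69167040-69167149, plus strand: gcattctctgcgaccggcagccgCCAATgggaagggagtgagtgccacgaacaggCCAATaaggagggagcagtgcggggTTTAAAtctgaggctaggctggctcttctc
CDC20, chr1:43358871-43358980, plus strand: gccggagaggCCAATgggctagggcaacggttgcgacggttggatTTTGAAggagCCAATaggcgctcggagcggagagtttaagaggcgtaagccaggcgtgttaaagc
HMMR, chr5:163460522-163460631, plus strand: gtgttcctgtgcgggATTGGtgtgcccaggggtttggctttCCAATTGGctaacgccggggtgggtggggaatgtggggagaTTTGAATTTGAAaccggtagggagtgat
ANLN, chr7:36389752-36389861, plus strand: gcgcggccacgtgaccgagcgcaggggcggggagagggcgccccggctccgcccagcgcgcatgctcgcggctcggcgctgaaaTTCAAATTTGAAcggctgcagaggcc
KIF23, chr15:69414239-69414348, plus strand: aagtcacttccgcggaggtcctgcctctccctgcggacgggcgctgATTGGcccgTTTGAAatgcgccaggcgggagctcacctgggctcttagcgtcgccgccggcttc
NEK2, chr1:211675622-211675731, minus strand: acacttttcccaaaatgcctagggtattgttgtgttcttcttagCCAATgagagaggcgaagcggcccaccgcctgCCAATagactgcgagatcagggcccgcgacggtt
RefSeq promoter windows were found for 38 of the 45 members, and a gene with several starts had several windows, which gave 47 windows. In the 250 bases before the start, 28 of the 47 windows (59.6%) held TTTGAA or TTTAAA on either strand, against 21.9% of all 35116 windows. The CCAAT letters were in 34 of the 47 (72.3%), against 32.0% of all windows, and both elements were in 24 (51.1%), against 7.6%. MAD2L1 held no CHR letters in its 250 bases and 1 CCAAT match, on the reverse strand with its first base 229 bases before the start. NUF2 held neither. HMMR, by contrast, has a pair of adjoining TTTGAA matches and 3 CCAAT matches in the stretch shown, of which a pair overlap, and CDC20 has 1 TTTGAA match between a pair of CCAAT matches. CCNA2, which fell in both lines by less than 1.5-fold and is not shown, held a CCAAT match with its first base 56 bases before the start. A match is a description of letters and not evidence of binding.

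The targeted gene was read first in every library. In Pa-Tu-8902, the normalised count of GOT1 (a library's count divided by its effective size relative to the mean of the line) was 4076, 3956 and 4519 without dox and 192, 165 and 146 with dox, a log2 fold change of -4.64 (SE 0.09, adjusted p = 1.51e-09). In MIA PaCa-2 it was 2075, 2341 and 2178 without dox and 69.3, 74.6 and 95.4 with dox, a log2 fold change of -4.76 (SE 0.11, adjusted p = 1.06e-09). Total counts were 26226537 to 43406137 per library, and the lowest count of any member in any library was 651. Of 6 epithelial markers, all 6 exceeded 1 TPM (a transcript level scaled by length and library) in Pa-Tu-8902 but 3 did in MIA PaCa-2, where EPCAM, CDH1 and KRT7 were below that level. The line of each library was taken from its title, while columns named for Pa-Tu-8902 in a supplementary table of the study hold the counts titled MIA PaCa-2. By the titles, untreated Pa-Tu-8902 cells held 548 TPM of EPCAM and 65.3 TPM of CDH1, which encodes E-cadherin, and untreated MIA PaCa-2 cells, a line known for lacking E-cadherin, held 0.14 and 0.01 TPM. Of the fibroblast list, 1 of 6 markers exceeded 1 TPM in each group, and its summed level moved with dox, from 3.82 to 6.38 TPM to 18.0 to 21.7 TPM in Pa-Tu-8902, carried by COL1A1, and from 192.2 to 248 TPM to 340.4 to 398 TPM in MIA PaCa-2, carried by COL1A2. The fibroblast markers COL3A1, DCN and LUM were at 0 to 0.0533 TPM on average in every group. PDGFRB went from 0.0567 to 0.333 TPM on average with dox in Pa-Tu-8902 (log2 fold change 1.73, adjusted p = 0.00152 from edgeR). In MIA PaCa-2, PDGFRB went from 0.0967 to 0.0433 TPM. The part of the fibroblast markers in the results was not tested. CD68 alone of 6 immune markers and none of 5 endothelial or 5 acinar markers exceeded 1 TPM. Markers outside the fibroblast list also changed by at least 1.5-fold with dox, at an adjusted p below 0.01 from edgeR. In Pa-Tu-8902 these were CDH1 (log2 fold change 0.86), CD68 (-0.71) and VWF (2.00, from 0.27 to 0.653 TPM on average). In MIA PaCa-2 it was KRT19 (-1.66).

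All 45 members had enough counts to be tested in both lines, by edgeR's quasi-likelihood test over 14949 genes in Pa-Tu-8902 cells and 14589 in MIA PaCa-2 cells. A gene is said to have risen or fallen where its Benjamini-Hochberg adjusted p was below 0.01, and to be differentially expressed where it also changed by at least 1.5-fold. MAD2L1 and NUF2 were differentially expressed in both lines, and both were lower with dox. CDC25B was the only other differentially expressed member, and was higher with dox in Pa-Tu-8902. Thus 1 member was higher and 2 were lower in Pa-Tu-8902, where 9.22% of all genes tested were higher and 7.12% lower by this rule. In MIA PaCa-2, no member was higher and 2 were lower, where 4.36% of all genes were higher and 7.64% lower. The share of members called at this size was thus below that of all genes in every direction. The median log2 fold change of the members was -0.05 in Pa-Tu-8902 cells and 0.06 in MIA PaCa-2 cells, beside 0.0014 and -0.0089 over all genes tested.

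Without MAD2L1 and NUF2, the estimate was below 0 for 25 of 43 members in Pa-Tu-8902 and above 0 for 30 in MIA PaCa-2. Whatever the fold, 2 of these 43 rose and 7 fell (4.65% and 16.3%) in Pa-Tu-8902, both below the shares of all genes in this fit. In MIA PaCa-2, 12 rose and 1 fell (27.9% and 2.33%). Over all 45 members, 2 rose and 9 fell in Pa-Tu-8902 (19.0% of all genes rose and 19.1% fell), and 12 rose and 3 fell in MIA PaCa-2 (12.6% and 14.7% of all genes). As shares of the 45, these were 4.44% and 20% in Pa-Tu-8902 cells and 26.7% and 6.67% in MIA PaCa-2 cells. In this fit the share that fell in the first line was thus near that of all genes, and the share that rose in the second was above it. By DESeq2, 26.7% of the members fell in Pa-Tu-8902, beside 19.9% of all genes, and with no filter on low counts 24.4% did, beside 12.7%. In the other fits the share that fell there was near or below that of all genes, such as 13.3% beside 14.5% with effective lengths. With 1 library left out, 13.3% to 28.9% of the members rose in MIA PaCa-2, beside 7.21% to 17.5% of all genes in the same fits, both at their lowest without dox replicate 2. The estimate was above 0 for 18 of 45 members in Pa-Tu-8902 and for 30 in MIA PaCa-2. These counts depend on single libraries, since 7 members in place of 11 passed in Pa-Tu-8902 without dox replicate 3, and 9 and 8 in place of 15 passed in MIA PaCa-2 without dox replicates 1 and 2. At an adjusted p below 0.05, 5 members were higher and 13 lower in Pa-Tu-8902, where 25.4% of all genes were higher and 25.6% lower, and 15 were higher and 6 lower in MIA PaCa-2, where 20% and 21.9% of all genes were.

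**Figure D1:**
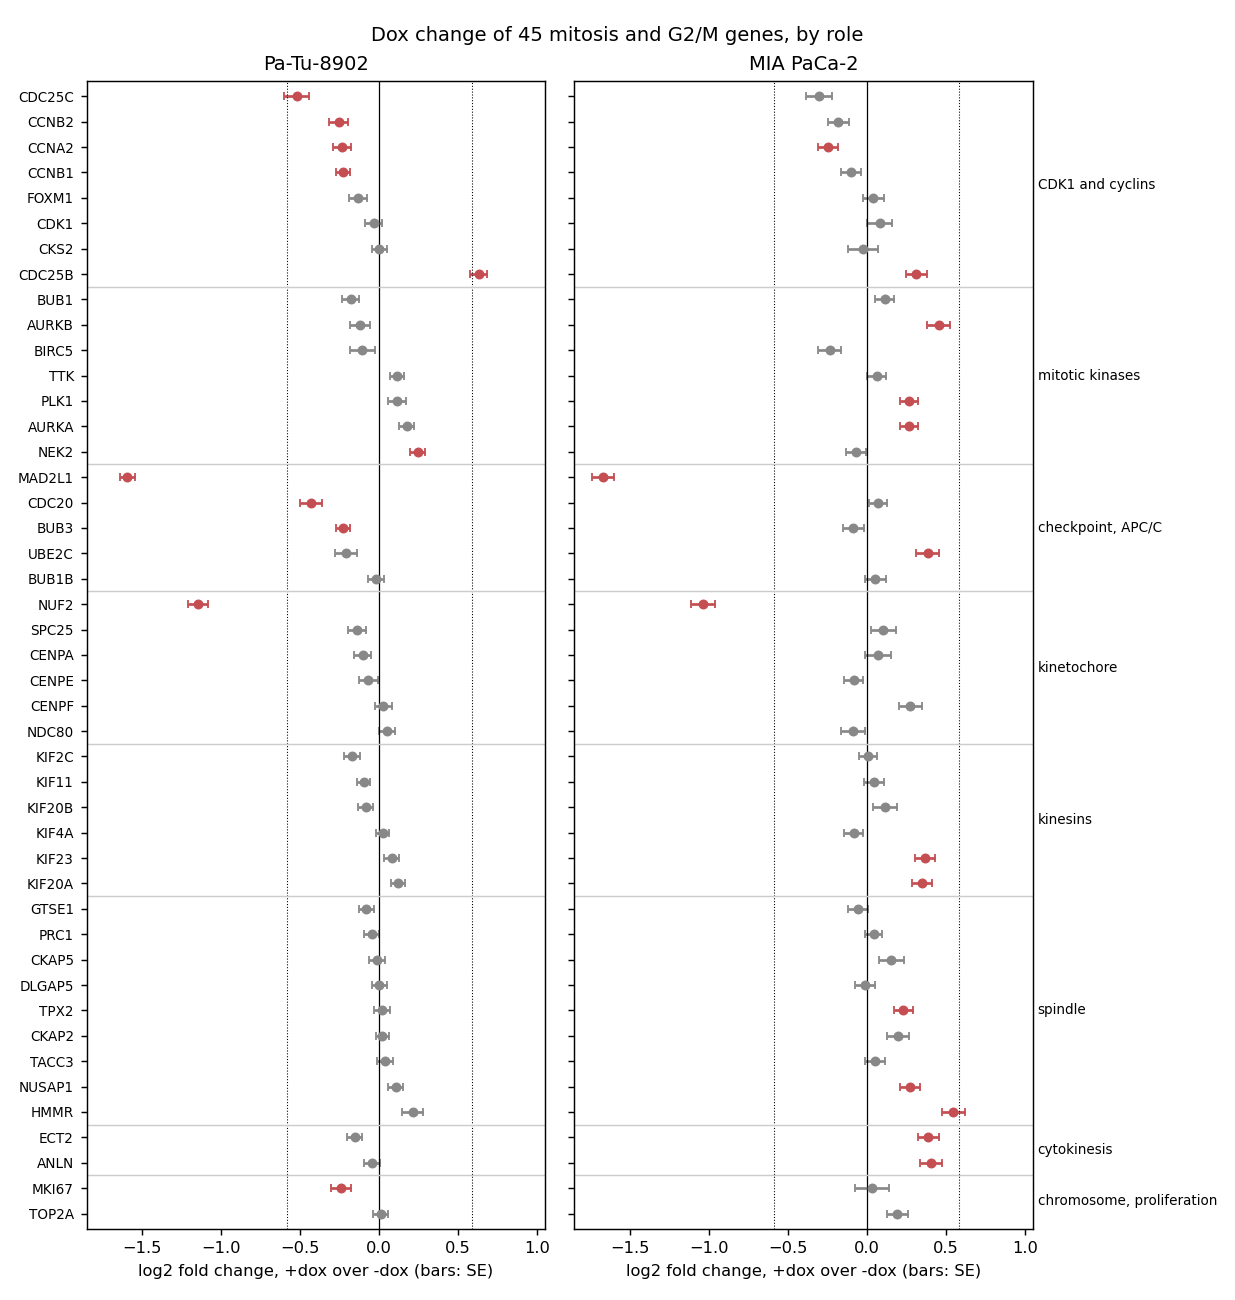
Log2 fold change with dox (x axis, bars are standard errors, n = 3 libraries per group) of the 45 members, ordered by role, in Pa-Tu-8902 (left) and MIA PaCa-2 (right). Red points passed an adjusted p below 0.01 and dotted lines mark 1.5-fold. MAD2L1 and NUF2 lie below -1 in both lines, and the other 43 members lie between -0.52 and 0.63.

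MAD2L1, which encodes the checkpoint protein that inhibits CDC20, fell most of all members. Its gene spans bases 120055623 to 120066858 of chromosome 4 (GRCh38, minus strand). In Pa-Tu-8902, its normalised counts were 3088, 2999 and 3194 without dox and 1011, 1027 and 1040 with dox. In MIA PaCa-2, they were 3686, 4023 and 3465 without dox and 1178, 1147 and 1192 with dox. The treated libraries lay within a narrow band and far below every untreated library of their line. The log2 fold change was -1.59 (SE 0.05, adjusted p = 7.03e-09) in Pa-Tu-8902, a 3.02-fold lower level, and -1.67 (SE 0.07, adjusted p = 4.00e-08) in MIA PaCa-2, a 3.18-fold lower level. Counted from the lowest fold change, MAD2L1 was gene 137 of 14949 in Pa-Tu-8902 and gene 142 of 14589 in MIA PaCa-2. The change did not differ detectably between the lines, by 0.08 on the log2 scale (95% confidence interval -0.11 to 0.26, adjusted p = 0.579).

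The estimates of the 2 most abundant MAD2L1 isoforms were both lower with dox. MAD2L1-201, the protein-coding isoform, was at 13.3 to 13.7 TPM in untreated and 4.52 to 5.03 TPM in treated Pa-Tu-8902 cells, and at 16.3 to 18.7 and 5.84 to 6.02 TPM in MIA PaCa-2. MAD2L1-202, an isoform annotated as subject to nonsense-mediated decay, took the larger part, at 44.4 to 47.0 TPM without and 14.7 to 16.2 TPM with dox in Pa-Tu-8902 and at 54.7 to 61.4 and 14.4 to 18.5 TPM in MIA PaCa-2. No group overlapped its counterpart for either isoform. The other 3 isoforms were at 0 to 9.12 TPM, with no common direction. These values are a description with no test. In GENCODE 44, 14 of the 45 members overlap another protein-coding gene, 10 of them on the opposite strand only. MAD2L1 is not among them. Reads in shared bases may be assigned to either gene, though the study counted reads on an earlier GENCODE release.

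NUF2, a subunit of the NDC80 complex, fell next most. Its gene spans bases 163266576 to 163355764 of chromosome 1 (GRCh38, plus strand). In Pa-Tu-8902, its normalised counts were 2974, 2903 and 3089 without dox and 1474, 1247 and 1332 with dox. In MIA PaCa-2, they were 4855, 5082 and 4295 without dox and 2190, 2275 and 2472 with dox. The groups were again far apart in both lines. The log2 fold change was -1.15 (SE 0.06, adjusted p = 2.61e-07) in Pa-Tu-8902 and -1.04 (SE 0.08, adjusted p = 1.85e-06) in MIA PaCa-2, with a difference between the lines of -0.11 (95% confidence interval -0.33 to 0.11, adjusted p = 0.490). The main isoform, NUF2-201, was at 55.1 to 59.1 TPM without and 22.6 to 28.96 TPM with dox in Pa-Tu-8902, and at 91.7 to 104.8 and 46.4 to 51.1 TPM in MIA PaCa-2. The annotated span of NUF2 overlaps RGS5, a regulator of G-protein signalling, over 55216 bases on opposite strands. That span begins at base 163266576, whereas the RefSeq start of NUF2 follows base 163321953, so the overlap lies at least partly before the RefSeq start. Whether the genes share exonic bases in the annotation used for counting was not tested. The study's methods give default settings for RSEM, which do not use strand, so reads from any shared exonic bases cannot be told apart. RGS5 was at 342 TPM in untreated MIA PaCa-2 cells and fell there (log2 fold change -0.76, adjusted p = 5.53e-06), whereas in Pa-Tu-8902, where NUF2 fell as well, RGS5 was at 2.5 TPM and its log2 fold change was 0.16 (adjusted p = 0.681).

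**Figure D2:**
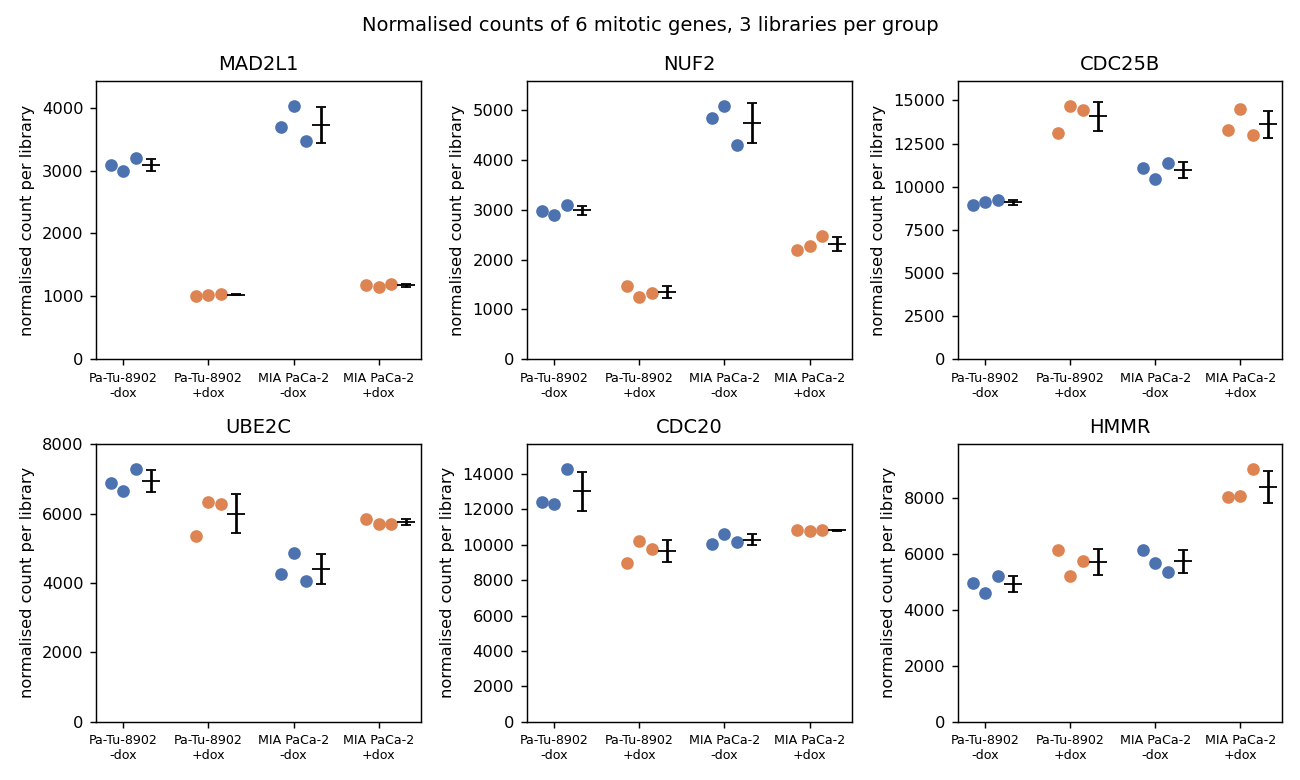
Normalised counts (y axis, linear from 0) of 6 members in each of the 12 libraries, grouped on the x axis by line and dox. Points are libraries, and each bar beside them is the mean ± SD of 3. MAD2L1 and NUF2 separate by dox in both lines, while UBE2C is lower with dox in Pa-Tu-8902 cells and higher in MIA PaCa-2 cells.

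The partners of these gene products in the same complexes were read beside them. The other subunits of the NDC80 complex gave log2 fold changes of 0.05 for NDC80 (adjusted p = 0.461) and -0.14 for SPC25 (adjusted p = 0.0615) in Pa-Tu-8902, and of -0.09 (adjusted p = 0.386) and 0.10 (adjusted p = 0.326) in MIA PaCa-2. SPC24, which is not among the 45, rose in Pa-Tu-8902 (0.53, adjusted p = 0.00228) and had a log2 fold change of -0.22 in MIA PaCa-2 (adjusted p = 0.0794). Of the checkpoint genes that act with MAD2L1, the kinase-like BUB1B passed in neither line, at -0.02 and 0.05. BUB3, which docks checkpoint proteins at the kinetochore, fell in Pa-Tu-8902 (-0.23, SE 0.04, adjusted p = 0.00133) and was at -0.09 in MIA PaCa-2 (adjusted p = 0.323). MAD1L1, which recruits MAD2 to unattached kinetochores, fell in MIA PaCa-2 (-0.30, adjusted p = 0.00472) and was at -0.18 in Pa-Tu-8902 (adjusted p = 0.0795). Whether the changes of these partners differ from those of NUF2 and MAD2L1 was not tested.

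Of the CDK1 and cyclin group of 8 genes, 1 rose and 4 fell in Pa-Tu-8902, and 1 rose and 1 fell in MIA PaCa-2. The falls were 50% of the group in Pa-Tu-8902, beside 19.1% of all genes, and the other counts were 12.5% each, beside 19.0% of all genes rising in that line, and 12.6% rising and 14.7% falling in MIA PaCa-2. CDC25B, a phosphatase that activates CDK1, rose in both lines. Its normalised counts were 8933, 9129 and 9212 without dox and 13126, 14660 and 14472 with dox in Pa-Tu-8902, and 11065, 10433 and 11382 without dox and 13306, 14486 and 13022 with dox in MIA PaCa-2. No untreated library reached the lowest treated library of its line. The log2 fold change was 0.63 (SE 0.05, adjusted p = 4.47e-06) in Pa-Tu-8902 and 0.31 (SE 0.07, adjusted p = 0.00283) in MIA PaCa-2, where the adjusted p was 0.0151 without dox replicate 1 and 0.0283 without dox replicate 2. The difference of 0.32 between the lines (95% confidence interval 0.13 to 0.51) had an adjusted p of 0.0129. CDC25C, the related phosphatase, went the other way. Its normalised counts were 1331, 1182 and 1483 without dox and 915, 914 and 954 with dox in Pa-Tu-8902 (log2 fold change -0.52, SE 0.08, adjusted p = 2.81e-04), and 971, 1010 and 842 without dox and 736, 747 and 802 with dox in MIA PaCa-2 (-0.30, SE 0.08, adjusted p = 0.0125). The CDC25C change in MIA PaCa-2 passed under 4 of 13 alternatives, at an adjusted p of 0.00937 by DESeq2, 0.00245 with no filter on low counts, 0.00997 in a fit of all 12 libraries and 0.00277 without untreated replicate 3.

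The cyclins of mitosis fell by less than 1.5-fold in Pa-Tu-8902. CCNB1, which encodes cyclin B1, was at 15213, 14854 and 15701 normalised counts without dox and 12738, 13356 and 12980 with dox (log2 fold change -0.23, SE 0.05, adjusted p = 0.00212). CCNB2 was at 6093, 6153 and 6994 without dox and 5262, 5510 and 5344 with dox (-0.26, SE 0.06, adjusted p = 0.00424), and CCNA2, the cyclin of S phase and G2, at 4305, 4381 and 4847 without dox and 3655, 3979 and 3874 with dox (-0.23, SE 0.06, adjusted p = 0.00651). The groups did not overlap for any of the 3 cyclins. That was also so for members that did not pass, such as FOXM1 and KIF11 (adjusted p = 0.0819 and 0.0855). The share of all genes without overlap was not counted. The sizes varied little over 13 alternatives, from -0.25 to -0.19 for CCNB1, from -0.29 to -0.19 for CCNB2 and from -0.27 to -0.18 for CCNA2, while the calls changed with some of them. The adjusted p of CCNB1 was 0.0112 without untreated replicate 1 and 0.0155 without dox replicate 3. That of CCNB2 was 0.0108 and 0.0201 without dox replicates 1 and 3, and 0.0107 with effective lengths as offsets. That of CCNA2 was 0.0169 with effective lengths, 0.0136 and 0.0145 without untreated replicates 2 and 3, and 0.0208 and 0.0244 without dox replicates 1 and 3.

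In MIA PaCa-2, the same cyclin transcripts were lower in the mean, but of the 3 only CCNA2 passed the threshold. CCNA2 was at 4337, 4194 and 3871 normalised counts without dox and 3478, 3384 and 3612 with dox (log2 fold change -0.24, SE 0.06, adjusted p = 0.00984). Its fall failed the threshold under 7 of 13 alternatives, not all of them left-out libraries. Its adjusted p was 0.0332 without untreated replicate 1, and 0.0406, 0.0491 and 0.0206 without dox replicates 1, 2 and 3. CCNB1 was at 15833, 16580 and 15122 without dox and 14817, 14038 and 15455 with dox, with overlapping groups (-0.10, SE 0.06, adjusted p = 0.232). CCNB2 was at 4262, 4512 and 4252 without dox and 3700, 3679 and 4113 with dox (-0.18, adjusted p = 0.0427).

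CDK1 itself passed in neither line. Its log2 fold change was -0.03 in Pa-Tu-8902 (95% confidence interval -0.16 to 0.09, adjusted p = 0.633), and in MIA PaCa-2 it was 0.08 (-0.09 to 0.25, adjusted p = 0.432). Its normalised counts spanned 3538 to 3855 without and 3445 to 3770 in dox-treated Pa-Tu-8902 cells, and 3136 to 3712 and 3503 to 3972 in MIA PaCa-2. CKS2, a small subunit of CDK complexes, was at 0.0014 and -0.02. FOXM1, a transcription factor of G2/M genes, was at 55930, 57067 and 59662 normalised counts without dox and 48909, 54858 and 53752 with dox in Pa-Tu-8902 (-0.13, SE 0.06, adjusted p = 0.0819), and at 12221, 11351 and 12465 without dox and 12403, 12944 and 11720 with dox in MIA PaCa-2 (0.04, SE 0.06, adjusted p = 0.645).

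Levels of FOXM1 per length set the lines apart. In untreated Pa-Tu-8902 cells it was first among the 45 members at 798.4 to 825 TPM, followed by CKS2 at 541 to 573 TPM and CCNB1 at 459 to 483 TPM. In untreated MIA PaCa-2 cells FOXM1 was eleventh, at 152 to 195 TPM, and its range overlapped those of its neighbours TPX2 and CDC25B. CKS2 was first there at 562 to 599 TPM and CCNB1 second at 473 to 537 TPM. CENPE, a kinesin of the kinetochore, had the lowest level in both lines, at 16.5 to 19.0 TPM in Pa-Tu-8902 and 16.9 to 23.4 TPM in MIA PaCa-2, and MAD2L1 stood low in the order before dox, at 58.3 to 65.0 and 74.6 to 79.5 TPM. Differences in level between the lines were not tested.

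Of the 7 genes for mitotic kinases and the chromosomal passenger subunit BIRC5, 1 rose in Pa-Tu-8902 and 3 rose in MIA PaCa-2, and none fell in either line. These were 14.3% of the group, below the 19.0% of all genes that rose in the first line, and 42.9%, above the 12.6% in the second. NEK2, a kinase of centrosome separation, was at 3223, 3163 and 3380 normalised counts without dox and 3930, 3825 and 3803 with dox in Pa-Tu-8902 (log2 fold change 0.24, SE 0.05, adjusted p = 0.00140), and at 4407, 4368 and 4003 without dox and 4084, 3944 and 4159 with dox in MIA PaCa-2 (-0.07, SE 0.06, adjusted p = 0.401). AURKB, the passenger kinase that corrects attachments, rose in MIA PaCa-2 from 4263, 5200 and 4615 to 6571, 6288 and 6412 normalised counts (0.45, SE 0.07, adjusted p = 5.76e-04). In Pa-Tu-8902 it was at 4187, 4232 and 4465 without dox and 3844, 4334 and 3672 with dox (-0.12, SE 0.06, adjusted p = 0.143). The treated libraries of AURKB were thus clear of the untreated ones in MIA PaCa-2 and overlapped them in Pa-Tu-8902.

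PLK1, the kinase that triggers and sustains mitotic entry, rose in MIA PaCa-2 from 7044, 6790 and 7124 to 8618, 8533 and 8061 normalised counts (log2 fold change 0.27, SE 0.06, adjusted p = 0.00364). In Pa-Tu-8902 it was at 8427, 8705 and 9343 without dox and 9132, 10148 and 9398 with dox, which overlap (0.12, SE 0.06, adjusted p = 0.119). AURKA, the spindle pole kinase, was at 6692, 6822 and 6482 without dox and 7680, 8147 and 8208 with dox in MIA PaCa-2 (0.27, SE 0.06, adjusted p = 0.00376), and at 8254, 8286 and 8593 without dox and 9154, 9850 and 9358 with dox in Pa-Tu-8902 (0.17, SE 0.05, adjusted p = 0.0107). In MIA PaCa-2 the sizes were 0.24 to 0.29 for PLK1 and 0.23 to 0.31 for AURKA over 13 alternatives, and both calls held without untreated replicate 2 but not without any other single library. The adjusted p of PLK1 was 0.01004 and 0.0110 without untreated replicates 1 and 3, and 0.0358, 0.0306 and 0.0104 without dox replicates 1, 2 and 3. That of AURKA was 0.0112 and 0.0203 without untreated replicates 1 and 3, and 0.0136, 0.0299 and 0.0257 without dox replicates 1, 2 and 3. Counting every alternative, PLK1 failed the threshold there under 7 of 13 and AURKA under 6. In Pa-Tu-8902, AURKA passed under 5 of 13 alternatives, at an adjusted p of 0.00253 by DESeq2, 0.00987 with its size factors, 0.00593 with at least 10 counts in every library, 0.00842 without untreated replicate 3 and 0.00260 without dox replicate 1. BIRC5, which encodes survivin, did not pass in either line, at -0.10 (adjusted p = 0.283) and -0.24 (adjusted p = 0.0231), though in MIA PaCa-2 its adjusted p was 0.00986 by DESeq2 and 0.00489 with no filter on low counts. The kinases TTK and BUB1 also passed in neither, with log2 fold changes from -0.18 to 0.11.

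CDC20, the activator of the APC/C that MAD2 inhibits, and UBE2C, its ubiquitin-conjugating enzyme, behaved differently in the lines. CDC20 was at 12441, 12306 and 14278 normalised counts without dox and 8975, 10225 and 9777 with dox in Pa-Tu-8902 (log2 fold change -0.43, SE 0.07, adjusted p = 4.39e-04). In MIA PaCa-2 it was at 10036, 10630 and 10172 without dox and 10821, 10790 and 10809 with dox (0.07, SE 0.06, adjusted p = 0.333). UBE2C was at 6889, 6662 and 7291 without dox and 5369, 6354 and 6296 with dox in Pa-Tu-8902 (-0.21, SE 0.07, adjusted p = 0.0249), and rose in MIA PaCa-2 from 4266, 4881 and 4071 to 5855, 5696 and 5715 (0.39, SE 0.07, adjusted p = 0.00135). For UBE2C the groups were apart in both lines and in opposite directions, though the lower level in Pa-Tu-8902 did not pass the threshold. Its log2 fold change there was -0.11 without dox replicate 1, and its adjusted p was 0.00139 with no filter on low counts.

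The 6 kinesins and 9 spindle genes held no differentially expressed member in either line. In Pa-Tu-8902, none of these 15 passed the threshold at any fold, and their log2 fold changes ran from -0.17 for KIF2C to 0.21 for HMMR. In MIA PaCa-2, 2 kinesins and 3 spindle genes rose and none fell, which was 33.3% of each group beside 12.6% of all genes, and the log2 fold changes ran from -0.08 for KIF4A to 0.55 for HMMR. KIF4A has a near-identical copy, KIF4B, which held at most 10.1 counts in any library. KIF2C, KIF4A, KIF11 and KIF20B, motors of the spindle and chromosomes, and PRC1, CKAP2, CKAP5, DLGAP5, GTSE1 and TACC3, which bundle or bind microtubules or their ends, passed in neither line. HMMR, a microtubule-associated protein, rose most of all members in MIA PaCa-2, from 6167, 5696 and 5369 to 8048, 8085 and 9050 normalised counts (log2 fold change 0.55, SE 0.07, adjusted p = 1.30e-04). In Pa-Tu-8902 it was at 4966, 4616 and 5218 without dox and 6167, 5236 and 5756 with dox (0.21, SE 0.07, adjusted p = 0.0223, and 0.00632 by DESeq2, 0.00157 with no filter on low counts and 0.00217 without dox replicate 2). KIF20A, a motor of the central spindle, rose in MIA PaCa-2 from 6598, 5938 and 6143 to 7846, 8146 and 7777 (0.35, SE 0.06, adjusted p = 9.67e-04, and 0.0110 without dox replicate 2), and was at 8617, 8883 and 9180 without dox and 9705, 9557 and 9693 with dox in Pa-Tu-8902 (0.12, SE 0.05, adjusted p = 0.04997). The other risers in MIA PaCa-2 were KIF23 (0.37), a subunit of the centralspindlin complex, NUSAP1 (0.27) and TPX2 (0.23), both of which bind spindle microtubules. The adjusted p of NUSAP1 was 0.00496, and 0.0198 without untreated replicate 3 and 0.0200, 0.0280 and 0.0363 without dox replicates 1, 2 and 3. That of TPX2 was 0.00926, and 0.0128 and 0.0312 without untreated replicates 1 and 3 and 0.0477, 0.0675 and 0.0308 without dox replicates 1, 2 and 3. The rise of TPX2 failed the threshold under 9 of 13 alternatives, not all of them left-out libraries.

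Cytokinesis was represented by ANLN, the scaffold of the contractile ring, and ECT2, the exchange factor that activates RhoA at the cleavage site. ANLN rose in MIA PaCa-2 from 13379, 11364 and 12247 to 16767, 16625 and 15613 normalised counts (log2 fold change 0.41, SE 0.07, adjusted p = 9.04e-04), and was at 22512, 23426 and 23379 without dox and 22831, 21618 and 22762 with dox in Pa-Tu-8902 (-0.04, SE 0.05, adjusted p = 0.470). ECT2 rose in MIA PaCa-2 from 6833, 6295 and 6074 to 8195, 8215 and 8737 (0.39, SE 0.06, adjusted p = 6.20e-04), and was at 13013, 12902 and 12798 without dox and 11776, 11201 and 11803 with dox in Pa-Tu-8902 (-0.15, SE 0.05, adjusted p = 0.0156). Both genes thus separated by dox in MIA PaCa-2, and ECT2 also did so in Pa-Tu-8902, downwards and short of the threshold in edgeR (adjusted p = 0.00624 by DESeq2).

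MKI67, which encodes the proliferation marker Ki-67, was at 22433, 23368 and 19935 normalised counts without dox and 18987, 17956 and 18793 with dox in Pa-Tu-8902 (log2 fold change -0.24, SE 0.06, adjusted p = 0.00894). This fall failed the threshold under 10 of 13 alternatives, with an adjusted p of 0.0396 and 0.0484 without untreated replicates 1 and 2, and of 0.0230, 0.0476 and 0.0482 without dox replicates 1, 2 and 3. In MIA PaCa-2 it was at 24885, 19483 and 27203 without dox and 24806, 26208 and 22248 with dox, with wide and overlapping groups (0.03, SE 0.11, adjusted p = 0.830), and the sign turned without untreated replicate 2 (-0.10). TOP2A, the topoisomerase that untangles sister chromatids, was at 27854, 28047 and 27404 without dox and 28324, 27676 and 27876 with dox in Pa-Tu-8902 (0.0098, SE 0.05, adjusted p = 0.876). In MIA PaCa-2 it was at 29108, 26057 and 26158 without dox and 29413, 31593 and 31940 with dox (0.19, SE 0.07, adjusted p = 0.0386). The remaining kinetochore members CENPA, CENPE and CENPF, which mark the centromere or bind its outer plate, passed in neither line, the nearest being CENPF in MIA PaCa-2 (0.27, adjusted p = 0.0110).

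The difference between the lines was tested as the change in Pa-Tu-8902 minus the change in MIA PaCa-2, in a fit of all 12 libraries over 16544 genes. UBE2C was the only member to differ by at least 1.5-fold (-0.59, SE 0.11, adjusted p = 5.12e-04), where 10.4% of all genes did. It lies just past that limit. The count was 0 without untreated replicate 3 or dox replicate 1 of Pa-Tu-8902 and without untreated replicate 3, dox replicate 1 or dox replicate 3 of MIA PaCa-2, and 2 without dox replicate 2 of Pa-Tu-8902 or untreated replicate 2 of MIA PaCa-2. DESeq2 gave 0 as well. Whatever the fold, 6 members (13.3%) differed, where 16.9% of all genes did. Besides UBE2C they were ECT2 (-0.54, SE 0.08, adjusted p = 8.84e-05), AURKB (-0.57, SE 0.10, adjusted p = 5.51e-04), CDC20 (-0.50, SE 0.10, adjusted p = 8.37e-04) and ANLN (-0.45, SE 0.09, adjusted p = 0.00127), all relatively lower in Pa-Tu-8902, and NEK2 (0.31, SE 0.08, adjusted p = 0.00687), relatively higher there. For the other 39 members no difference passed the threshold.

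**Figure D3:**
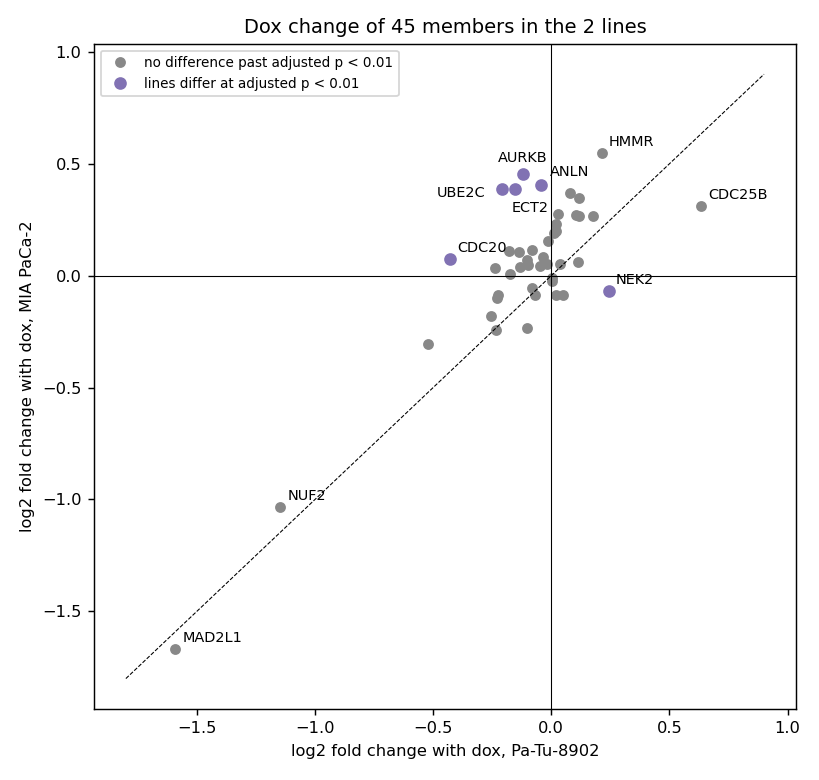
Log2 fold change with dox of each of the 45 members in Pa-Tu-8902 (x axis) against MIA PaCa-2 (y axis), with the dashed line marking equal change. The 6 members whose change differed between the lines at an adjusted p below 0.01 are purple, and MAD2L1 and NUF2 lie near the dashed line, far from the other members.

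Over the 45 members, the log2 fold changes of the lines correlated with a Pearson r of 0.839 and a Spearman rho of 0.485. Without MAD2L1 and NUF2, the values over 43 members were 0.45 and 0.409. In all, 13 members were above 0 in both lines and 10 below 0 in both, 17 were below 0 in Pa-Tu-8902 and above 0 in MIA PaCa-2, and 5 were the reverse. These are descriptions across genes, which are not independent replicates, and the members of a line share their libraries.

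The summed level of the 45 members did not separate by dox in Pa-Tu-8902. It was 7530, 7535 and 7300 TPM without dox and 7489, 7312 and 7613 TPM with dox. In MIA PaCa-2 it was 6565, 5788 and 6367 TPM without dox and 6983, 7032 and 6929 TPM with dox, so that every treated library exceeded every untreated one, and untreated replicate 2 was lowest. As a share of the counts, the sum was 1.19% to 1.23% in both groups of Pa-Tu-8902, and rose in MIA PaCa-2 from 1.04% to 1.14% without dox to 1.18% to 1.21% with dox. A sum over chosen genes carries no test here.

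**Figure D4:**
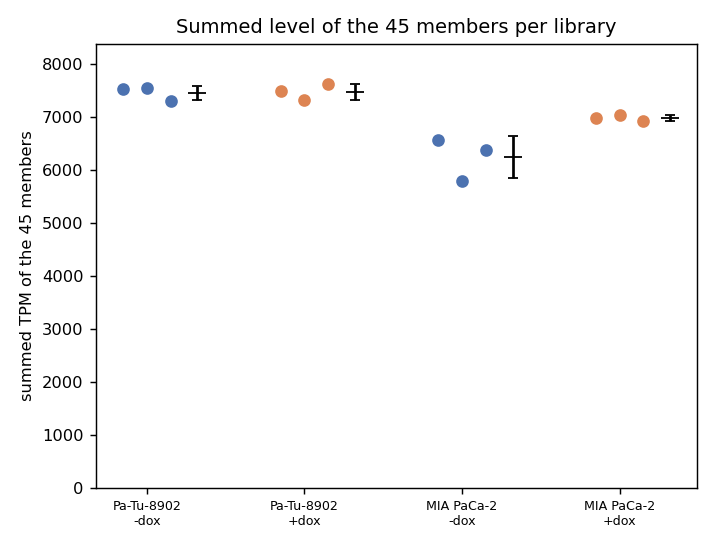
Summed TPM of the 45 members (y axis, linear from 0) in each library, grouped by line and dox on the x axis, with the mean ± SD of 3 libraries beside the points. The groups of Pa-Tu-8902 overlap, and the treated MIA PaCa-2 libraries, at 6929 to 7032 TPM, lie above the untreated ones, at 5788 to 6565 TPM.

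Other genes of the same machinery were counted from lists, whose shares are read beside those of all genes, 19.0% rising and 19.1% falling in Pa-Tu-8902 cells and 12.6% and 14.7% in MIA PaCa-2 cells. Of 30 further kinetochore and checkpoint genes, 1 rose and 14 fell in Pa-Tu-8902, and 3 rose and 11 fell in MIA PaCa-2, with median log2 fold changes of -0.23 and -0.17. The falls were 46.7% and 36.7% of that list, and the rises 3.33% and 10%. MIS12, the subunit that names the complex holding NDC80 at the centromere, was differentially expressed in both lines, from 484 ± 39.5 to 237 ± 15.3 normalised counts in Pa-Tu-8902 (SD, n = 3 per group, log2 fold change -1.03, SE 0.10, adjusted p = 9.32e-06 from edgeR) and from 755 ± 82.7 to 352 ± 16.9 in MIA PaCa-2 (-1.10, SE 0.09, adjusted p = 5.58e-06 from edgeR). In Pa-Tu-8902, the inner kinetochore genes CENPQ (-0.91), CENPI (-0.68) and CENPH (-0.59) and the microtubule-binding SKA3 (-0.66) were also differentially expressed and lower. Of 17 genes for the APC/C and its regulators, 1 rose and 6 fell in Pa-Tu-8902, and none rose and 2 fell in MIA PaCa-2. The falls were 35.3% and 11.8% of the list, and the rise in Pa-Tu-8902 was 5.88%. CDC26, a small subunit of the APC/C, was the only differentially expressed gene of that list in each line, at -1.16 (SE 0.08, adjusted p = 7.56e-07) and -1.01 (SE 0.10, adjusted p = 2.24e-05).

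Genes that restrain mitotic entry held the largest rise of these cell cycle lists. WEE1, the kinase that keeps CDK1 inhibited, rose in both lines, from 1276 ± 33.6 to 2473 ± 124 normalised counts in Pa-Tu-8902 (SD, n = 3 per group, log2 fold change 0.95, SE 0.05, adjusted p = 2.73e-07 from edgeR) and from 1151 ± 37.0 to 2706 ± 52.4 in MIA PaCa-2 (1.23, SE 0.06, adjusted p = 1.07e-07 from edgeR). PKMYT1, the related kinase, fell in Pa-Tu-8902 (-0.49, adjusted p = 1.92e-05) and was at 0.0037 in MIA PaCa-2 (adjusted p = 0.967). Of the 12 genes of this list, 3 rose and 4 fell in Pa-Tu-8902, and 2 rose and none fell in MIA PaCa-2. As shares, 25% rose and 33.3% fell in the first line, and 16.7% rose in the second. SFN, which encodes 14-3-3 sigma (-1.01), and GADD45A (-0.59) were differentially expressed and lower in Pa-Tu-8902, and GADD45B was higher (0.59), so that the list did not move in 1 direction.

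Of 21 condensin and cohesin genes, 1 rose and 8 fell in Pa-Tu-8902, and 2 rose and 3 fell in MIA PaCa-2, with none differentially expressed. The shares were 4.76% and 38.1% in the first line, and 9.52% and 14.3% in the second. Of 39 other periodic G2/M genes, 5 rose and 10 fell in Pa-Tu-8902, and 8 rose and 4 fell in MIA PaCa-2. That was 12.8% rising and 25.6% falling in Pa-Tu-8902 cells, and 20.5% and 10.3% in MIA PaCa-2 cells. ARL6IP1, an endoplasmic reticulum shaping protein, was differentially expressed and higher in both lines (0.65 and 0.86), and PLK4, the kinase of centriole duplication, was lower in Pa-Tu-8902 (-0.74). Of 12 genes of the DREAM and MMB complexes, which read the CHR, 4 rose and 2 fell in Pa-Tu-8902, and 3 rose and 1 fell in MIA PaCa-2, or 33.3% and 16.7% of the list in the first line and 25% and 8.33% in the second. TFDP2 (0.66), E2F5 (0.64) and RBL2 (0.61) were differentially expressed and higher in Pa-Tu-8902, and E2F4 was lower (-0.61). Of 43 S phase genes, 1 rose and 24 fell in Pa-Tu-8902 and 4 rose and 16 fell in MIA PaCa-2, so that 55.8% and 37.2% fell while 2.33% and 9.3% rose. TYMS (-0.70 and -0.60) and ORC1 (-0.67 and -0.66) were differentially expressed in both lines, and CDC25A, the phosphatase that acts at the start of S phase, was higher in MIA PaCa-2 (1.00).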

How the data were processed

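RNA-seq libraries of iDox-shGOT1 cells of each line, 3 per treatment, were compared from the deposited tables. The authors trimmed reads with Trimmomatic 0.39, aligned them to GRCh38 with STAR 2.5.2a as called by RSEM 1.3.1, and deposited expected counts per gene, which are not normalized. They also deposited TPM of genes and isoforms, scaled to a common total per library, and RSEM's effective gene lengths. Of the expected counts, 5.34% were not whole, and all were rounded. The line of a library was taken from its title, since columns named for Pa-Tu-8902 in a supplementary table of the study hold the counts titled MIA PaCa-2.

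Counts were normalized by TMM and tested in R 4.3.3 with edgeR 4.0.16 (glmQLFit, glmQLFTest) in each line, keeping genes that reached 10 counts in 3 or more libraries, with Benjamini-Hochberg adjustment over all of them. Thresholds were an adjusted p of 0.01 and, for differential expression, a 1.5-fold change. Standard errors are the absolute log2 fold change over the square root of F. The difference between lines was the interaction term of 1 fit of the 12 libraries. Alternatives were DESeq2 1.42.0, its size factors, other filters, effective lengths as offsets, a replicate block, 1 fit of all libraries, other thresholds and each library left out. The tests were checked on simulated counts with 2-fold changes at a set dispersion, scored at the 1.5-fold limit. Calls of smaller changes were not checked in that way. Replicates of a group had a chi-square of 2.25 to 27.3 per degree of freedom between them, so none were copies of another. This does not show whether they came from separate cultures. Intervals cover 95%.

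The 45 members and all lists were chosen with earlier results of these data known. Members given library by library are those differentially expressed in a line or between lines, the 5 lowest and 5 highest fold changes of each line, and CCNB1, CDK1, PLK1, AURKA, FOXM1, MKI67 and TOP2A. Of other lists, at most the 5 differentially expressed genes with the largest change in a line are named. SPC24, MAD1L1, PKMYT1, RGS5, KIF4B and the members named outside this rule were named after their values were seen. Gene positions and overlaps come from GENCODE 44, and promoter letters from RefSeq windows on GRCh38.p14, which do not hold BIRC5, TTK, BUB3, FOXM1, TPX2, AURKA or UBE2C. Protein motifs were not analysed here.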

Additional observations from a re-analysis of the deposited data

Results flagged for a closer look

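The dox change of 6 members differed between the lines by the interaction test at an adjusted p below 0.01. The change in Pa-Tu-8902 minus that in MIA PaCa-2 was -0.54 on the log2 scale for ECT2 (-0.15 against 0.39), -0.59 for UBE2C (-0.21 against 0.39), -0.57 for AURKB (-0.12 against 0.45), -0.50 for CDC20 (-0.43 against 0.07), -0.45 for ANLN (-0.04 against 0.41) and 0.31 for NEK2 (0.24 against -0.07). The first 5 passed under all 18 alternatives run, with an adjusted p of at most 0.00794 (ANLN). NEK2 lost the threshold under 9 of them, with an adjusted p of up to 0.0274.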

How the results depend on the processing

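MAD2L1 and NUF2 passed in both lines under all 13 alternatives run, at -1.61 to -1.53 and -1.19 to -1.07 in Pa-Tu-8902 cells and -1.73 to -1.57 and -1.11 to -0.99 in MIA PaCa-2. GOT1 did likewise, at -4.72 to -4.49 and -4.94 to -4.57. Differentially expressed members numbered 2 to 4 in Pa-Tu-8902 cells and 2 to 3 in MIA PaCa-2 cells over 15 alternatives. Whatever the fold, 18 members passed in Pa-Tu-8902 at an adjusted p below 0.05 (21 in MIA PaCa-2), and 7 (without dox replicate 3) to 11 with each library left out. In MIA PaCa-2, 9 passed with the replicate block, 7 higher (15.6% of members, beside 10.4% of all genes) and 2 lower, with CDC25B, AURKA, CCNA2, PLK1, TPX2 and NUSAP1 at an adjusted p of 0.0132 to 0.0470, and 8 to 16 with each library left out (9 and 8 without dox replicates 1 and 2). The count of members differing by 1.5-fold between lines, 1 in the report, was 0 with DESeq2, with its size factors, with no filter, with at least 10 counts in every library and at 2-fold. It was 0 without untreated replicate 3 or dox replicate 1 of Pa-Tu-8902, or without untreated replicate 3, dox replicate 1 or dox replicate 3 of MIA PaCa-2, and 2 without dox replicate 2 of Pa-Tu-8902 or untreated replicate 2 of MIA PaCa-2. The sign turned for TOP2A in Pa-Tu-8902 without untreated replicate 3 (-0.000715, range over libraries left out -0.000715 to 0.0340), CDK1 there without dox replicate 2 (0.0234, range -0.0723 to 0.0234), BUB3 in MIA PaCa-2 with effective lengths (0.0107), and FOXM1 and MKI67 there without untreated replicate 2 (-0.0061 and -0.10) and without dox replicate 2 (-0.0039 and -0.03), with ranges up to 0.0694 and 0.127, none of which passed the threshold. The causes were not tested. Libraries that share a replicate number did not deviate together (correlations -0.0928 to 0.131 over 6 pairs), and the block left 3 and 2 differentially expressed members in the lines and 1 between them. With 3 libraries per group, calls of changes of small size often turned on 1 library.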
